A study of Mus musculus with 3 samples.

Results

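Chromatin accessibility was examined at 8 connexin genes (Gja1, Gja4, Gja5, Gja10, Gjb2, Gjb6, Gjc1 and Gjd2), a list taken from the gap junction family and not from any measured value, out of 21646 protein-coding genes on the autosomes and X. All 8 were found by symbol. For each gene the strongest DNase-seq peak within 1 kb of any of its transcription starts was taken in each replicate, and peaks over 1 kb from every protein-coding start were given to the gene whose start was nearest, up to 100 kb away. A site is called reproducible where overlapping peaks came from all 3 replicates. The assignment of distal sites goes by distance alone, and a site may act on another gene.

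The series profiles Müller cells, the radial glia that span the retina, as primary cells of mice of the B6NCrl strain at 12 days after birth, with both sexes pooled. DNase-seq sequences the places where the nuclease DNase I cuts, which are mostly promoters and enhancers. There is 1 group of 3 biological replicates and no treated, mutant or other control group, so no difference between conditions can be tested and every value below is a description. The replicates carry separate biosample labels and 1 donor label, no sort or time in culture is named, and the labelled protocol is one for cultured cells.

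Connexins are the subunits of gap junctions: connexins oligomerise into a hemichannel in 1 cell's membrane, and hemichannels of neighbouring cells dock to let ions and small molecules pass. Which connexins a cell makes decides which neighbours it can couple to. In the retina, connexin 43 (Gja1) is best known from glia and pigment epithelium, connexin 26 (Gjb2) and connexin 30 (Gjb6) from astrocytes and epithelia, connexin 37 (Gja4) and connexin 40 (Gja5) from vessels, connexin 45 (Gjc1) from smooth muscle and neurons, the Gjd2 product from electrical synapses of neurons, and the Gja10 product from horizontal cells.

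The lists held 300269, 281185 and 184544 peaks in replicates 1, 2 and 3, and read depth is unknown. Peaks carry a deposited score, a whole number between 1 and 150 whose meaning is not stated, so no change between replicates is read from scores or from ranks. All 10 Müller glia markers had a promoter peak in every replicate, none of 6 rod markers had one in any, and the microglia and macrophage markers split the replicates, with 9, 9 and 2 of 9. Over all protein-coding genes the share with a promoter peak was 72.7%, 71.8% and 69.7%. In a mixture, a site open in few cells and a site weakly open in many cannot be told apart.

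The glial connexins were a gene with an accessible promoter, Gja1, and a pair with weak promoters and a stronger distal site, Gjb2 and Gjb6, and the sequences printed next are those sites. The first is the part of the Gja1 promoter site upstream of the gene's first start. The others are the 2 Gja1 downstream sites that hold an AP-1 match, and for Gjb2 and Gjb6 the distal site whose lowest rank over the replicates was best. Capitals mark matches to consensus motifs on either strand, except short nuclear factor I matches, which are left unmarked.
Gja1 promoter, chr10:56377196-56377329, plus strand: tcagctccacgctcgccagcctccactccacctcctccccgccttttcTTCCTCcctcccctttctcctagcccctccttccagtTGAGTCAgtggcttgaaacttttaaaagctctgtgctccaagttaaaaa
Gja1 downstream site at 47.5 kb, chr10:56426516-56426685, plus strand: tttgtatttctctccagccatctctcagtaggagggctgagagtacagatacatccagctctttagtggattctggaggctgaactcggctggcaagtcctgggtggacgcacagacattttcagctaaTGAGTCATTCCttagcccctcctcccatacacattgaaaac
Gja1 downstream site at 90.1 kb, chr10:56469116-56469285, plus strand: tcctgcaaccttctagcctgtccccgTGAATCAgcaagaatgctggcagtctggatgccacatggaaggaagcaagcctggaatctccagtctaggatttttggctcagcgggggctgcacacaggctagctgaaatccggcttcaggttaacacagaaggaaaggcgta
Gjb2 downstream site at 20.4 kb, chr14:57084216-57084385, plus strand: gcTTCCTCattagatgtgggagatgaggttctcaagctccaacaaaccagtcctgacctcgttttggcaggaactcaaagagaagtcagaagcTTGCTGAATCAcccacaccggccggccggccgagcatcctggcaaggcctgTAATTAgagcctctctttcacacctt
Gjb6 upstream site at 27.8 kb, chr14:57161356-57161525, plus strand: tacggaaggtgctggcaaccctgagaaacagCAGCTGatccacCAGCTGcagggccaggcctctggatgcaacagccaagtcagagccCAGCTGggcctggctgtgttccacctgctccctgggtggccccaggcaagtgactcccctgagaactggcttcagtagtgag

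The connexins known from vessels are shown by the Gja4 promoter upstream of its start, the single Gja4 distal site, a pair of the 4 Gja5 intron sites with AP-1 matches, and the Gjc1 distal site of best lowest rank.
Gja4 promoter, chr4:127314040-127314145, minus strand: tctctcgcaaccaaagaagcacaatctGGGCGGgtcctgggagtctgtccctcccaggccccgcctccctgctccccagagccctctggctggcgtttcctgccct
Gja4 upstream site at 5.8 kb, chr4:127319756-127319925, plus strand: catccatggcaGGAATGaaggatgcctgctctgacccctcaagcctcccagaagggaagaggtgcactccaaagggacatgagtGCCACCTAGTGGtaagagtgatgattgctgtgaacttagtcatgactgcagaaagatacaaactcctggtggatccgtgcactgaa
Gja5 intron site at 6.99 kb upstream, chr3:97025336-97025525, plus strand: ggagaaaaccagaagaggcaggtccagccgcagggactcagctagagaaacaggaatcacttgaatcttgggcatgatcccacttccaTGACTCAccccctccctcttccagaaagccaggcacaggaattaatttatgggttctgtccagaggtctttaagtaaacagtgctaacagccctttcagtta
Gja5 intron site at 5.84 kb downstream, chr3:97038156-97038365, plus strand: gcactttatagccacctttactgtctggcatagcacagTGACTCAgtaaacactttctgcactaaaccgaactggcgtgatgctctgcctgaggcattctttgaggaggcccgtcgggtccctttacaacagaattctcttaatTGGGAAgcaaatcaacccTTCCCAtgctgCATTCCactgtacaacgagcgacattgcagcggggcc
Gjc1 intron site at 6 kb upstream, chr11:102810816-102810985, plus strand: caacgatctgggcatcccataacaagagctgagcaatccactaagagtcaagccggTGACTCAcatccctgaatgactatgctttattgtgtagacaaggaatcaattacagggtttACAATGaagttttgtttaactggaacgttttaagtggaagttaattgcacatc

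For the neuronal connexins the strongest distal site of Gjd2 is given, with the highest scoring site of replicate 1 given to Gja10.
Gjd2 downstream site at 54.3 kb, chr2:113959236-113959405, plus strand: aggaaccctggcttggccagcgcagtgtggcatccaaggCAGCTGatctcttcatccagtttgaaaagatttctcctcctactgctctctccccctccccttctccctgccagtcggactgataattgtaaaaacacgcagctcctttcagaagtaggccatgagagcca
Gja10 downstream site at 83.5 kb, in a Bach2 intron, chr4:32519216-32519385, plus strand: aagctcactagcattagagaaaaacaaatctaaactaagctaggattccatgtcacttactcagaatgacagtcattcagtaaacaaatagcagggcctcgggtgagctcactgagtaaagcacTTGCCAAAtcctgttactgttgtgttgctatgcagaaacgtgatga

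A promoter peak was present at 7 of the 8 connexin genes in each replicate, against 72.7% of all protein-coding genes in replicate 1, 71.8% in replicate 2 and 69.7% in replicate 3. A reproducible promoter site was present at 6 of 8, against 67.1% of all genes. The missing genes were Gja10, with no promoter peak in any replicate, and Gjb6, where no promoter region held peaks of all 3 replicates. With 8 genes, these shares are not far from the background. The promoter peaks were weaker than those of most genes: among genes with a promoter peak the median score of the connexins was 93, 80 and 72 in replicates 1, 2 and 3, beside 123, 115 and 113 over all genes, and the median percentile of the connexins was 26.7, 25.7 and 19. These medians count Gja5 by peaks nearer to a start of Gpr89, while its other promoter site scored 51, 37 and 41. The medians were not recomputed with that site.

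Ordered by mean score, the promoters ran from Gja5 (107 ± 15, SD, n = 3) through Gja4 (99.7 ± 6.66), Gja1 (98 ± 17.8) and Gjc1 (81.7 ± 10.6) to Gjd2 (49.3 ± 8.08), Gjb2 (36.3 ± 4.51) and Gjb6 (26 ± 4.36). The ranges of Gja5, Gja4 and Gja1 over the replicates overlapped, and so did those of Gja1 and Gjc1. Gjc1, Gjd2, Gjb2 and Gjb6 followed each other with no overlap between neighbours, although Gjd2 and Gjb2 came within 1 unit of score in replicate 3. The place of Gja5 at the top rests on a peak that lies nearer to another gene, as described with that gene below.

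**Figure D1:**
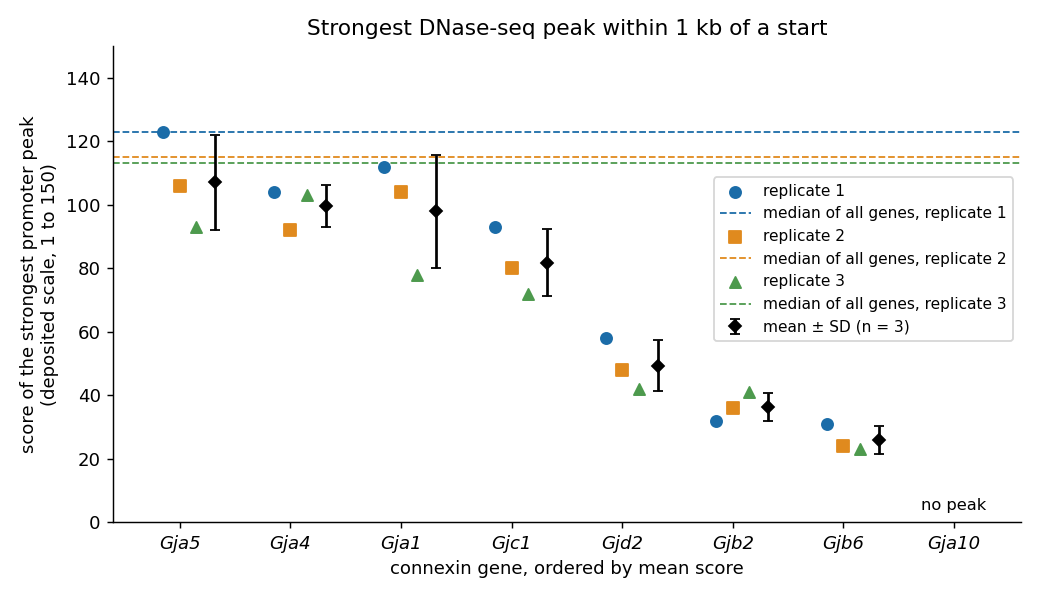
Score of the strongest peak within 1 kb of a start (vertical axis, deposited scale from 1 to 150) for each connexin gene (horizontal axis), with 1 symbol per replicate, the mean and SD in black, and dashed lines at the median over all genes with a promoter peak. Gja5, Gja4, Gja1 and Gjc1 sit between 72 and 123, Gjd2, Gjb2 and Gjb6 between 23 and 58, and Gja10 has no peak.

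Gja1 (ENSMUSG00000050953.10, chr10:56377330-56402513, plus strand), which encodes connexin 43, had the promoter of the glial connexins with the highest scores. Its strongest promoter peak scored 112, 104 and 78 in replicates 1, 2 and 3 and covered the first annotated start in each. Those scores stood at percentiles 38.6, 40.4 and 21.6 among genes with a promoter peak. The site, chr10:56377196-56377365, lay in hotspots at the cap of 100 on the −log10 q scale in all replicates. That cap was reached by 51.4%, 48.2% and 43.9% of all hotspots in replicates 1, 2 and 3. Upstream of the start the site held a full AP-1 consensus (TGANTCA), from 49 to 43 bases before the start, within the first sequence above. AP-1 is the dimer of Fos and Jun family proteins. Of all 24974 reproducible promoter sites, 5.69% held that consensus in the 150 bp around their centres, and it was found in 1 of the 12 promoter sites of the connexins.

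Accessibility at Gja1 was not confined to the first start. Its 5 protein-coding starts spread over the beginning of the gene, and 3 more reproducible sites lay among them: chr10:56377956-56378125 with 90, 78 and 43, chr10:56378296-56378565 with 52, 52 and 47, and chr10:56378656-56378845 with 84, 60 and 70. A region over the last start, chr10:56379036-56379185, scored 88 and 73 in replicates 1 and 2 and had no peak in replicate 3. Gja1 thus had 4 reproducible promoter sites, against 3 at Gjc1, 2 at Gja5 and 1 each at Gja4, Gjb2 and Gjd2. Gja4, Gjb2 and Gjd2 have 1 start each, so less sequence lay within 1 kb of a start there than at Gja1. Of the Gja5 sites, 1 lay nearer to a start of Gpr89.

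Away from its starts, Gja1 had 15, 13 and 14 distal peaks in replicates 1, 2 and 3 (14 ± 1, SD, n = 3), and 10 reproducible distal sites. Unlike the number of peaks in the lists, the number of distal peaks at Gja1 was nearly the same in each replicate. The 10 sites had median percentiles of 45.4, 48.7 and 28.2 in replicates 1, 2 and 3 among all reproducible distal sites within 100 kb. Of the 10 sites, 4 lay upstream and 6 downstream, 1 in an intron of Gja1 and 9 outside every protein-coding gene. The strongest, chr10:56469116-56469285, lay 90.1 kb downstream of the nearest Gja1 start and scored 104, 92 and 55. A neighbour at chr10:56468616-56468825 scored 74, 64 and 33. A second group of sites lay about midway: chr10:56426516-56426685, 47.5 kb downstream, scored 75, 63 and 64, and chr10:56431816-56431985, 52.8 kb downstream, scored 78, 64 and 54. The nearest upstream site, chr10:56373176-56373325, scored 81, 67 and 29.

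**Figure D2:**
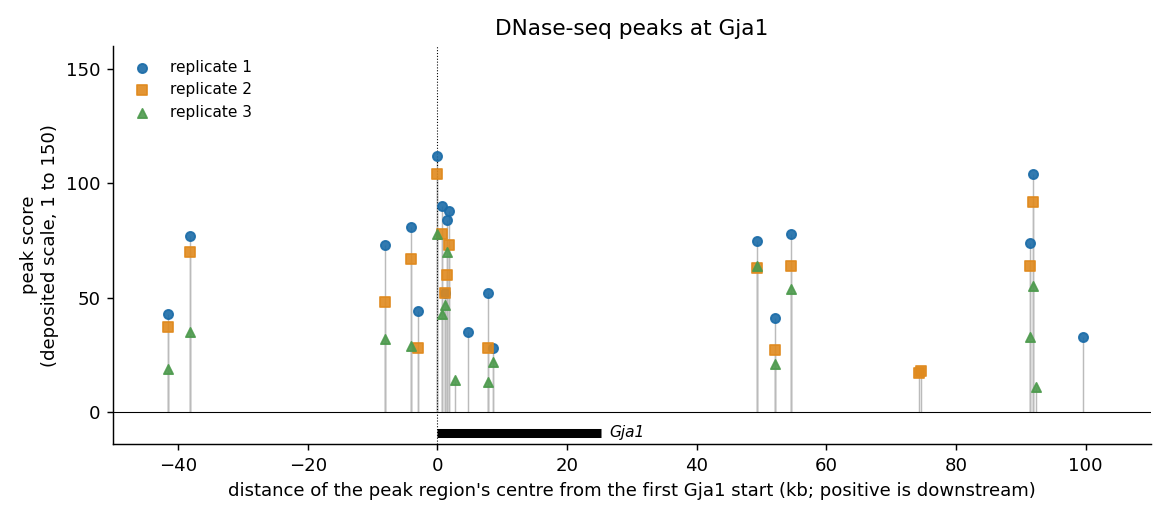
Score of each promoter or distal peak region at Gja1 (vertical axis, deposited scale from 1 to 150) by the distance of its centre from the first Gja1 start in kb (horizontal axis), with 1 symbol per replicate and the gene body as a black bar. Peaks gather around the starts and in groups upstream and downstream of the gene, and the downstream group farthest from the gene reaches 104 in replicate 1.

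The site 47.5 kb downstream of Gja1 held an AP-1 match at base 130 that overlapped a match to the TEAD consensus CATTCC at base 135, counted from 1 at the left end of the printed sequence. TEAD proteins bind DNA for the coactivators YAP and TAZ. The strongest site, at 90.1 kb, held AP-1 at base 27. Together 2 of the 10 distal sites of Gja1 had an AP-1 match and 3 of 10 a TEAD match in the 150 bp around their centres. Over all 120288 reproducible distal sites in the genome, 21.4% had an AP-1 match and 19.7% a TEAD match.

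Gjb2 (ENSMUSG00000046352.7, chr14:57098600-57104702, minus strand), which encodes connexin 26, scored 32, 36 and 41 at its promoter, at percentiles 3.16, 7.16 and 7.44. The 3 peaks did not sit at 1 place: they chained into a region of 590 bp, chr14:57104216-57104805, and under a rule that asks each pair of replicates to overlap by at least 50% of a peak's width the promoter site was lost. Its hotspots had −log10 q values of 3.37, 4.32 and 6, far from the cap. The 300 bp RefSeq promoter window of Gjb2 is rich in CpG, with 27 CpG, more than in 84.5% of such windows.

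Gjb2 had 5, 4 and 2 distal peaks in replicates 1, 2 and 3 (3.67 ± 1.53, SD, n = 3) and 2 reproducible distal sites, both downstream and outside every protein-coding gene. The stronger, chr14:57084216-57084385, scored 90, 84 and 75, above the gene's own promoter in every replicate. Its printed sequence held a C/EBP match (TTGCNNAA) at base 94 that overlapped an AP-1 match at base 98, and the homeobox core TAATTA at base 145. The other, chr14:57093156-57093325, scored 65, 51 and 29.

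Gjb6 (ENSMUSG00000040055.9, chr14:57123303-57133611, minus strand), which encodes connexin 30, had the weakest promoter peaks of the genes that had any. They scored 31, 24 and 23, at percentiles 2.91, 2.58 and 1.99. In replicates 1 and 2 the strongest peak lay within chr14:57132576-57132765, over 500 bp downstream of a start, and in replicate 3 it covered a start at chr14:57133256-57133405. The region over that start, chr14:57133176-57133425, scored 20 and 23 in replicates 1 and 3 and had no peak in replicate 2. Over the other start, the one inside the RefSeq promoter window, chr14:57133576-57133725 scored 17 in replicate 3 alone. No region within 1 kb of a Gjb6 start held peaks of all 3 replicates. The 2 reproducible distal sites of Gjb6 were both upstream: chr14:57161356-57161525 with 63, 49 and 49 and chr14:57161916-57162105 with 104, 81 and 34. The second scored higher in replicates 1 and 2 and the first in replicate 3. The first held the E-box CAGCTG at bases 32, 44 and 89.

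Markers of astrocytes, the other glia of the inner retina, had promoter peaks at 6 of 6 genes in every replicate, with summed scores of 513, 465 and 467. Over all genes, 72.7%, 71.8% and 69.7% had a promoter peak in replicates 1, 2 and 3. Gfap scored 79, 68 and 70 and Pax2 63, 64 and 83. Markers of pigment epithelium, where Gja1 is also known, had promoter peaks at 4, 4 and 3 of 6 genes, against the same shares. Their summed scores were 432, 419 and 387. The part of astrocytes in the values of Gja1, Gjb2 and Gjb6 was not tested, nor was that of pigment epithelium in the values of Gja1.

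Gja4 (ENSMUSG00000050234.7, chr4:127311421-127314039, minus strand), which encodes connexin 37, had a promoter peak of nearly the same score in each replicate: 104, 92 and 103, at percentiles 32.7, 32.1 and 38.8. The site, chr4:127313976-127314145, covered its only protein-coding start and lay in hotspots at the cap of 100 in all replicates. Between 43.9% and 51.4% of all hotspots of a replicate were at that cap. The Gja4 promoter held the GC box GGGCGG, which SP and KLF factors bind, from 79 to 74 bases before the start. Gja4 had 4, 3 and 1 distal peaks and a single reproducible distal site, chr4:127319756-127319925, which scored 89, 60 and 43. That site, 5.8 kb upstream, held a full CTCF consensus at base 85, found in 3.73% of all reproducible distal sites. CTCF is the protein that marks the borders of chromatin loops.

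Gja5 (ENSMUSG00000057123.14, chr3:96904693-97077416, plus strand), which encodes connexin 40, scored 123, 106 and 93 by the rule of the strongest peak within 1 kb. Those peaks lay 563, 583 and 483 bp from the start of a long Gja5 transcript, and each was nearer to a start of Gpr89, the gene that runs the opposite way and has the same scores as its own strongest promoter peak. At the other Gja5 start, from which the shorter transcripts run, the site chr3:97032096-97032325 scored 51, 37 and 41. With peaks counted only where the nearest start was the gene's own, the mean score of Gja5 was 43 in place of 107, which puts it below Gjd2. Both sites were reproducible.

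The gene body of Gja5 held all 7 of its reproducible distal sites, 4 in introns and 3 in exons. It had 18, 13 and 10 distal peaks in replicates 1, 2 and 3 (13.7 ± 4.04, SD, n = 3). The strongest distal site, chr3:97052496-97052665, scored 125, 120 and 117 and lay wholly in an untranslated part of an exon, and chr3:97051416-97051605, with 108, 94 and 101, lay wholly in coding sequence. Both scored above the promoter site at the nearer start in every replicate. Of the intron sites, chr3:97025336-97025525 scored 103, 101 and 63 and chr3:97038156-97038365 scored 80, 70 and 61.

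All 4 intron sites of Gja5 held an AP-1 match, so that 4 of its 7 distal sites had one. Across the 8 genes, 11 of 46 reproducible distal sites had an AP-1 match (23.9%), close to the 21.4% of all reproducible distal sites. Gja5 was singled out here after its matches had been seen. A match is a string of letters and not a measured binding site.

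Gjc1 (ENSMUSG00000034520.14, chr11:102799579-102819700, minus strand), which encodes connexin 45, scored 93, 80 and 72 at its promoter, at percentiles 26.7, 25.7 and 19. The site, chr11:102819556-102819725, covered the outermost of its 3 starts. A second site over the next start, chr11:102819116-102819265, scored 62, 66 and 57, and a further one downstream of it, chr11:102818656-102818825, scored 59, 56 and 54. Gjc1 had 10, 7 and 5 distal peaks (7.33 ± 2.52, SD, n = 3) and 3 reproducible distal sites, 2 of them in its own intron. The strongest, chr11:102810816-102810985, scored 116, 106 and 69, with an AP-1 match at base 57 and the SOX consensus ACAATG at base 118. Its scores in replicates 1 and 2 were above those of the promoter.

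Markers of vessel cells stood beside these 3 genes as follows. Endothelial markers had promoter peaks at 7, 7 and 5 of 10 genes in replicates 1, 2 and 3. The share over all genes was 72.7%, 71.8% and 69.7%. Summed scores of the endothelial markers were 549, 482 and 359, and Tie1, Emcn and Sox17 had no peak in any replicate. Cdh5, the cadherin of endothelial junctions, scored 78 and 67 in replicates 1 and 2 and had no peak in replicate 3. Bmx likewise scored 32 and 18 in replicates 1 and 2 alone. The other endothelial markers had a peak in every replicate. Kdr scored 124, 109 and 129, Tek 107, 104 and 79, and Pecam1 95, 93 and 40. Erg scored 65, 59 and 69 and Cldn5 48, 32 and 42. Markers of pericytes and smooth muscle had promoter peaks at 8 of 8 genes in every replicate, with summed scores of 709, 577 and 612. The part of vessel cells in the values of Gja4, Gja5 and Gjc1 was not tested.

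**Figure D3:**
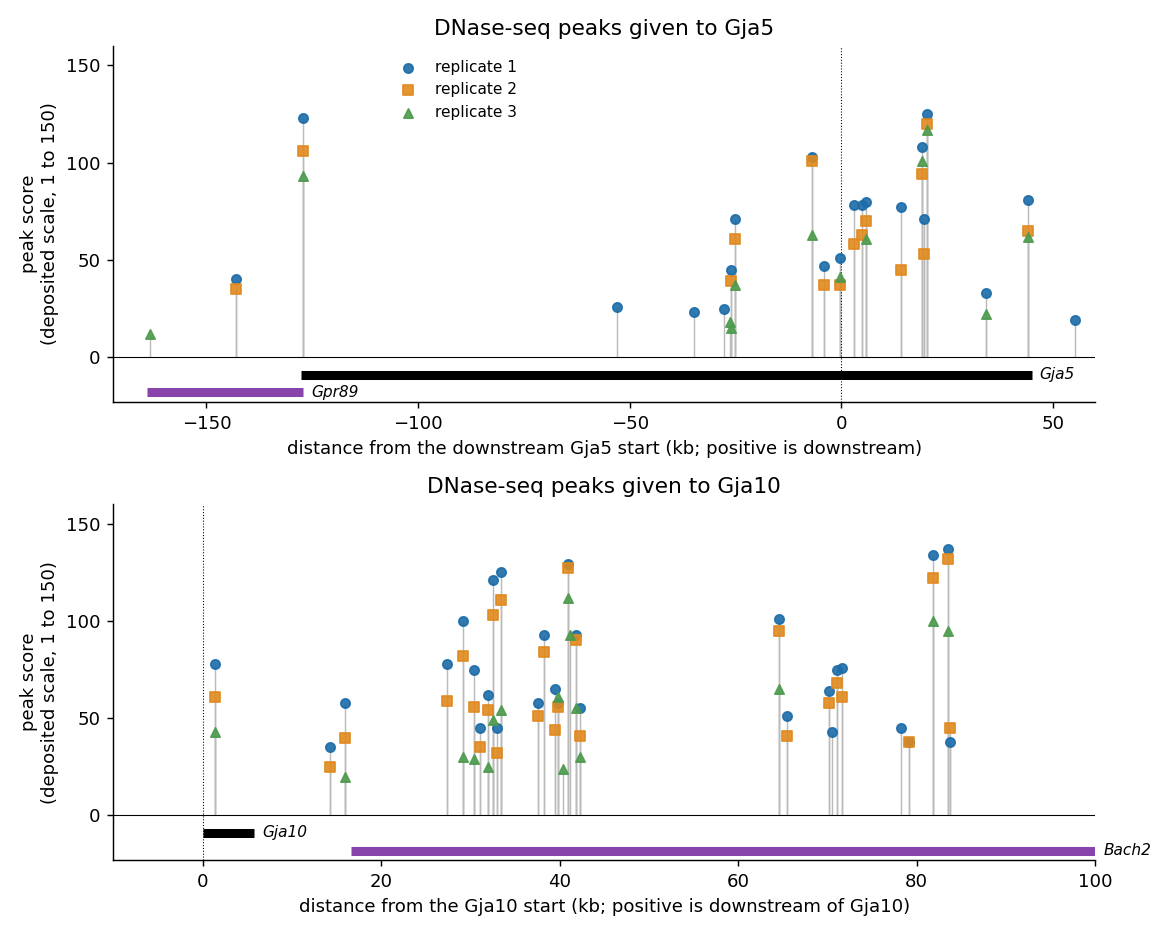
Score of each peak region given to Gja5 (upper panel) and Gja10 (lower panel), on the deposited scale from 1 to 150, by the distance of its centre in kb from the downstream Gja5 start or the Gja10 start, with 1 symbol per replicate and gene bodies as bars. The Gja5 promoter peaks of 123, 106 and 93 stand at the Gpr89 end of the gene, and most peaks given to Gja10 stand over the body of Bach2.

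Gjd2 (ENSMUSG00000068615.4, chr2:114009601-114013619, minus strand), the connexin of electrical synapses between neurons, had a weak promoter peak in each replicate, with scores of 58, 48 and 42 at percentiles 12.1, 11.7 and 7.79. The site, chr2:114013316-114013485, lay just inside the gene, its edge 134 bp from the start. Its hotspots had −log10 q values of 100, 4.68 and 100. The RefSeq promoter window of Gjd2 held 41 CpG, more than in 96.5% of such windows, while its peaks ranked near the bottom.

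Gjd2 had 11, 13 and 7 distal peaks (10.3 ± 3.06, SD, n = 3) and 7 reproducible distal sites, all downstream, 1 in its intron and 6 outside every protein-coding gene. The strongest, chr2:113959236-113959405, lay 54.3 kb downstream and scored 124, 119 and 103, above the promoter in each replicate. Its lowest percentile over the replicates, among all reproducible sites, was 88.1. A second, chr2:113980756-113980945, scored 84, 86 and 92.

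Gja10 (ENSMUSG00000051056.5, chr4:32596960-32602760, minus strand), a connexin of horizontal cells, had no peak and no hotspot within 1 kb of its start in any replicate. Just outside that limit, with its edge 1355 bp from the start, a site in the coding sequence of Gja10 itself (chr4:32601256-32601405) scored 78, 61 and 43. With a promoter window of 2500 bp this site counts as a promoter site of Gja10. The RefSeq promoter window of Gja10 held 2 CpG, the lowest number among the 7 connexin genes found in that table.

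By distance Gja10 had the most distal sites of the 8 genes, with 29, 27 and 16 distal peaks in replicates 1, 2 and 3 (24 ± 7, SD, n = 3) and 14 reproducible sites. That is 14.4 sites per 100 kb of genome given to the gene, at percentile 91.8 among all genes. However, 12 of the 14 lay inside Bach2, the neighbouring gene for a transcription repressor best known from lymphocytes. The strongest by its lowest rank, chr4:32561676-32561905, scored 129, 127 and 112 over a Bach2 coding exon, and chr4:32519216-32519385, in a Bach2 intron, scored 137, 132 and 95. Bach2 had promoter scores of 136, 133 and 125 and 50 reproducible distal sites of its own. Without sites inside another gene's body Gja10 was left with 2.

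Many peaks given to Gja10 were missing from replicate 3. Of its 31 distal regions, 13 (41.9%) had a peak in replicates 1 and 2 and none in replicate 3, beside 27.2% of the distal regions of all genes. Over the 8 genes together the share was 27.5%. At Gja1 this was 1 of 17 regions (5.88%), at Gjc1 1 of 12 (8.33%), at Gjd2 3 of 14 (21.4%), at Gja5 6 of 20 (30%), at Gjb6 2 of 6 (33.3%), at Gjb2 2 of 5 (40%) and at Gja4 2 of 4 (50%). Promoter peaks of the 9 microglia and macrophage markers had summed scores of 700, 647 and 107 in replicates 1, 2 and 3. In replicate 3 P2ry12 and Tmem119 kept a peak, with 39 and 68, and the other 7 markers, Spi1, Csf1r and Cx3cr1 among them, had none. Whether such cells contributed to the sites in Bach2 was not tested, and replicate 3 also has the shortest list.

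Markers of neurons stood beside Gjd2 and Gja10 as follows. Horizontal cell markers had promoter peaks at 6 of 6 genes in each replicate, against 72.7%, 71.8% and 69.7% of all genes, with summed scores of 639, 568 and 560. Amacrine markers had them at 5, 5 and 6 of 7 genes, near that share, with summed scores of 475, 433 and 520 and none at Chat. Bipolar cell markers had them at 6 of 7 genes in each replicate and cone markers at 2, 2 and 1 of 5. Of the enzymes that make the transmitter GABA, Gad1 scored 64, 39 and 41. Gad2 scored 85, 84 and 79. The part of neurons in the values of Gjd2 and Gja10 was not tested.

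Taking the distal sites of the 8 genes as a set, every gene had at least 1 reproducible distal site, against 69.8% of all protein-coding genes, and 46 sites were given to them in all. The median was 5 sites per gene beside 2 over all genes. Per 100 kb of genome given to a gene the medians were closer, at 6.4 and 4.36, since the connexins had more genome given to them, with a median of 98566 bp beside 43192 bp. Both medians of the connexins count the 14 sites given to Gja10, of which 12 lay inside Bach2. Without sites inside another gene's body, 34 sites were left in all, and the medians were not recomputed. The spread among the 8 was wide: Gjb6 had 1.87 and Gja4 2.46 sites per 100 kb, Gja5 4.69, Gja1 5.8, Gjd2 6.99, Gjb2 7.44 and Gjc1 7.48, and Gja10 14.4. Scores of the 46 sites had medians of 79, 64 and 43 in replicates 1, 2 and 3, beside 78, 65 and 45 over all reproducible distal sites within 100 kb of a start. In score, the distal sites of the connexins were thus near the median of all genes, which their promoters were not.

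**Figure D4:**
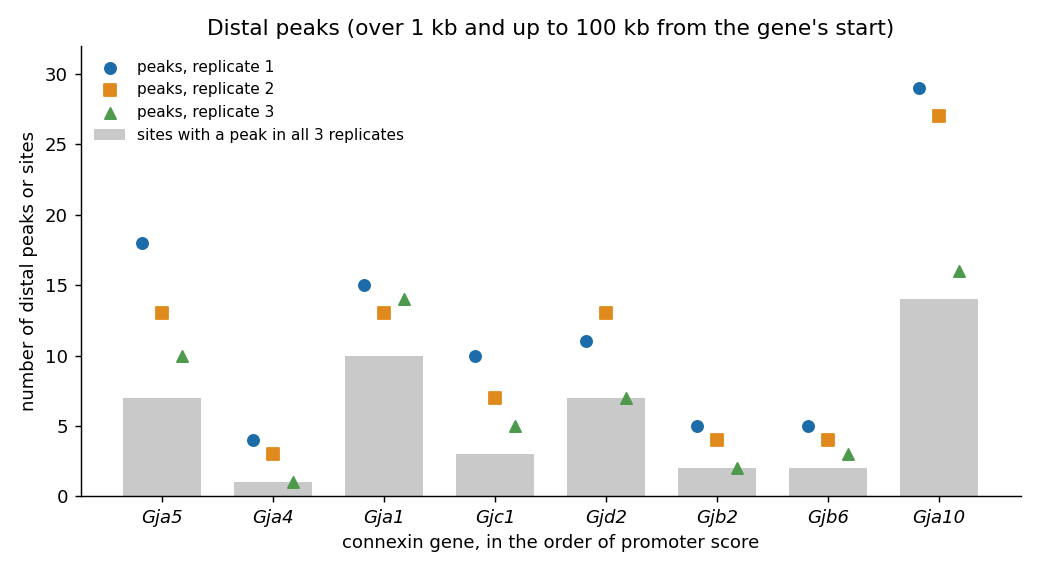
Number of distal peaks in each replicate (symbols) and of sites with a peak in all 3 replicates (bars) for each connexin gene, in the order of promoter score. Gja10, which has no promoter peak, has the most, with 29, 27 and 16 peaks and 14 sites, and Gja4 the fewest, with 4, 3 and 1 peaks and 1 site.

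Of 8 further connexin genes examined, 2 had a reproducible promoter site, against 67.1% of all genes. They were Gja3 with scores of 86, 85 and 82 and Gjd3 with 91, 82 and 84, in the range of Gjc1. Gjb1 had peaks of 38 and 32 in replicates 1 and 2 alone. The other 5, Gja6, Gjb5, Gjc3, Gjd4 and Gje1, had no promoter peak in any replicate.

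Pannexins, which form channels of a similar build, had a reproducible promoter site at 2 of 3 genes, near the 67.1% of all genes. Panx1 scored 92, 86 and 88 and Panx3 84, 82 and 73, while Panx2 had peaks of 57 and 30 in replicates 1 and 3 alone. Genes for proteins that bind connexins had a reproducible promoter site in 10 of 10 cases, against the same 67.1%. Among these, Tjp1, the scaffold ZO-1 that binds the tail of connexin 43, scored 124, 120 and 121 and had 36 reproducible distal sites. Cdh2, the gene for N-cadherin, scored 132, 127 and 137, and Ccn3, a matrix protein that binds connexin 43, scored 69, 66 and 72.

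**Figure D5:**
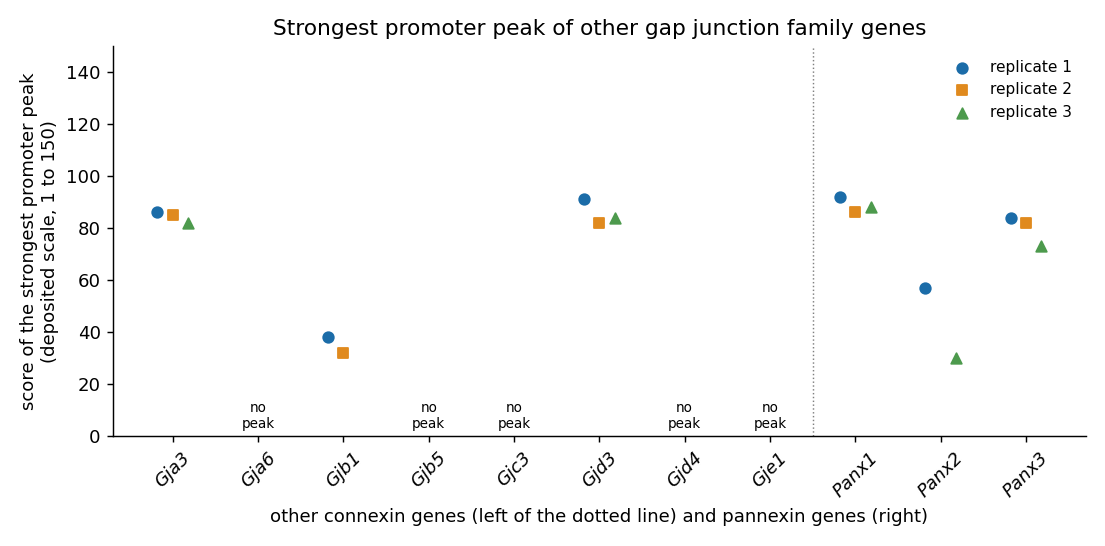
Score of the strongest peak within 1 kb of a start (vertical axis, deposited scale from 1 to 150) for 8 further connexin and 3 pannexin genes (horizontal axis), with 1 symbol per replicate. Gja3 and Gjd3 sit between 82 and 91, and 5 connexin genes have no promoter peak.

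Among all genes of the lists used here, the one whose promoter percentiles were most like those of Gja1 was Aqp4, the water channel of Müller glia and astrocytes, with scores of 108, 104 and 74. The largest difference over the 3 replicates was 3.13 percentile points, with an absent peak counted as percentile 0. The next was Tek, a receptor of endothelium, with 3.89. Gja4 was nearest to Aldh1l1, with 3.33, and to Dab1, with 4.97. Gjc1 was nearest to Gad2, with 3.76, and Gjd2 to Gad1, with 3.4. The next were Panx3 for Gjc1, with 4.23, and Trpm1 for Gjd2, with 4.22. For Gja5 the nearest was Opn1sw with 7.6, but this rests on the peak that lies nearer to Gpr89, and the likeness of its other promoter site was not computed. Gjb2 and Gjb6, at the bottom of the range, were nearest to genes that lack a peak in some replicate. These were Olig2 with 3.16 for Gjb2, and Bmx and Rpe65, both with 1.99, for Gjb6. After Olig2, Gjb2 was nearest to Grm6, with 3.29 and a peak in every replicate. These are likenesses over 3 values.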

How the data were processed

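DNase-seq peaks and hotspots of 3 replicates were used, 1 list of each per replicate, on mm10 per the file headers and labels. Peaks are 150 bp wide, and their deposited value is a score of unstated meaning, which may saturate at 150. Hotspots carry the deposited −log10 q, from 1.3 to a cap of 100. Per the deposited descriptions, each list came from 1 library's alignments, with no pooling. Which aligner and caller were used is not given in the sources used here. The hotspot values were used only as a description.

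Peaks repeating a position were removed (21, 20 and 23). Starts were those of protein-coding transcripts of 21646 genes in GENCODE M21, whose GRCm38 chromosomes are those of mm10. Distances run from a peak's edge to the start for the 1 kb and 100 kb limits, and a site's gene is the one whose start is nearest its centre. Peaks were merged across replicates where they shared at least 1 bp. On the autosomes and X, 145262 of 351961 regions held peaks of all 3 replicates, 86138 of them distal and within 100 kb of a start. Percentiles are ranks among genes with a promoter peak in a replicate, or among sites. Sites called intergenic or outside genes lie outside protein-coding genes. A gene's genome is the length nearest to its starts, between 1 and 100 kb away.

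For motif shares, both strands of the central 150 bp of each site were searched, and printed sequences were searched whole. Sequences were read from the RefSeq GRCm38.p6 genome. CpG counts come from RefSeq promoter windows of the same build, of which 7 of the 8 genes were matched. Exon sequence was not printed. Some genes of the family are not reported here.

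The connexin genes, gene lists, motifs and alternatives were chosen with earlier results of these data known. Named were all 8 genes, their strongest promoter peak in each replicate, the distal site of the best lowest rank, family genes with a promoter peak in any replicate, and the list genes of nearest percentile. Other sites were named after their values were seen. No test was run, since there is 1 group. Interval code was tested on simulated data. Python 3.11.15, numpy 2.4.6, pandas 2.3.3, scipy 1.17.1, pysam 0.24.0, samtools 1.23.1 and matplotlib 3.10.9 were used.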

Additional observations from a re-analysis of the deposited data

How the results depend on the processing

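Alternatives were other promoter windows (500 and 2500 bp), distal limits (50 and 200 kb), peak selections, overlap rules, start sets and hotspots, and leaving out each replicate. Counts were taken as alike within 1.5 times of the value reported. For the 8 genes, this took counts of 4 and 5 as alike to 6, and any rise up to 8 as well. Mean promoter scores were taken as alike where they moved by less than the SD over the 3 replicates. Percentiles in place of scores, counted with them, were alike where the gene kept its place in the order. Of 67 recomputed counts over the 8 genes or their family, 64 were alike, as were 98 of 112 distal counts of single genes and 45 of 49 mean promoter scores. The number of connexin genes with a reproducible promoter site ran from 4 to 7, and Gja1, Gja4, Gjc1 and Gjd2 were among them in every setting. Gjb2 was lost with the strongest 50% of peaks, with 184544 peaks from each replicate and with an overlap of 50% of a peak's width, which also lost Gja5. Gjb6 was gained without replicate 2 and without replicate 3, and Gja10 with 2500 bp.

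An overlap of 50% left 2 of 11 other connexin and pannexin genes with a reproducible promoter site, in place of 4. With the strongest 50% of peaks, the distal sites numbered 25 in all, with 3 at Gja1, 9 at Gja10, 3 at Gjd2 and 1 each at Gjb2 and Gjb6. Leaving out replicates gave 47 to 76 sites in all, 14 to 27 at Gja10, 7 to 13 at Gja5, 1 to 3 at Gja4 and 2 to 4 each at Gjb2 and Gjb6, and the highest of each came without replicate 3, the shortest list. A limit of 50 kb left 6 at Gja1, and 200 kb gave 4 at Gjb6. Among alternatives chosen after seeing the data, leaving out sites inside another gene left 2 at Gja10. Using the starts of every transcript of the protein-coding genes, noncoding transcripts of these genes included, left 1. Which starts then took the other sites was not looked up. Mean promoter scores were 60.3 for Gja5 and 21.5 for Gjb6 at 500 bp. At that window, the Gja5 mean took its own site in replicates 1 and 2 and the peak nearer to Gpr89 in replicate 3. Gjb6 then had no peak in replicate 2, so its mean was over replicates 1 and 3. The mean was 61.3 for Gjd2 at 2500 bp, and 43 for Gja5 with its own nearest peaks only. Percentiles in place of scores kept the order of the genes.

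No paired analysis was possible because there is 1 group. Read depth is unknown, so an absent peak, as at Gja10, is not shown to be closed chromatin.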

Other observations

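Some motif matches, counted in the central 150 bp of each site, were more frequent at some of the 8 genes than over all sites. The SOX consensus ACAATG was found in 3 of 3 reproducible distal sites of Gjc1, beside 12.4% of all reproducible distal sites, and the E-box CAGCTG in 2 of 2 of Gjb6, beside 13.4%. Both motifs also had matches at Gja5, Gja10 and Gjd2, and CAGCTG at Gjc1. TEAD matches fell on 10 of the 46 sites (21.7%), at Gja1, Gja4, Gja5 and Gja10, close to the 19.7% of all reproducible distal sites. The PU.1 core GAGGAA was found in 4 of 10 sites of Gja1 and 4 of 14 of Gja10, beside 15.5%, and it also had matches at Gjc1 and Gjd2. These were picked from 25 motifs after the matches were seen, and they are values only.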
